A study of Mus musculus with 6 samples.

Results

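The cells of brain blood vessels were followed through 50 genes of the blood-brain barrier endothelium, of the mural cells that wrap it (pericytes and smooth muscle) and of the fibroblasts along larger vessels. The genes were picked by name and role, and all 50 were found among the 22000 gene symbols of the count table. Each reached 1 CPM (count scaled to the size of its library) in every mouse of at least 1 group, so all 50 were among the 13185 genes tested. RNA-seq was carried out on prefrontal cortex (PFC) of male C57BL/6N mice at 9 weeks, with 3 Control mice and 3 early life stress (ELS) mice and 1 library per mouse. ELS mice were housed singly under a filter cap from weaning and stayed so until dissection, whereas Control mice were co-housed without the cap, so isolation early in life, isolation at dissection and the cap cannot be told apart. The labels name no genotype or drug that differs between the groups. Both groups came from litters of the same mothers.

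Brain endothelial cells are sealed by tight junctions and carry few vesicles, so that nutrients enter through dedicated transporters and many drugs are pumped back to the blood. Pericytes, recruited by PDGF signalling, and the basement membrane between both cells keep the barrier tight, and smooth muscle cells set the width of arterioles. Wnt ligands from neural cells induce and maintain the barrier program. In bulk tissue, fewer vascular cells and less RNA per cell cannot be told apart.

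Total counts per mouse lay between 28405795 and 35241743, with the 3 ELS libraries above the 3 Control libraries. Counts were put on a CPM scale after TMM scaling, the edgeR method that aligns libraries on their common genes, with factors close to 1. Groups were compared with edgeR's quasi-likelihood test, with p-values adjusted over all genes tested and errors given as SD over 3 mice. Calls needed an adjusted p under 0.05 together with a log2 fold change above 0.3 in size. Markers of other brain cells gave 9210 to 9880 summed CPM per mouse for 8 neuronal genes, 5780 to 6660 for 7 astrocyte genes, 6030 to 7940 for 7 oligodendrocyte genes and 296 to 326 for 6 microglial genes, and none of these 28 genes had an unadjusted p under 0.05. The 6 choroid plexus genes summed to 3.4 to 5.82 CPM, with Otx2 at 0 in 1 ELS mouse, and the 5 red blood cell genes to 51 to 85.2 CPM. The 6 striatal genes summed to 225, 245 and 431 CPM in Control mice 1 to 3, against 409, 266 and 295 CPM in ELS mice 1 to 3, so that Control mouse 3 and ELS mouse 1 stood apart from the other 4.

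None of the 50 vascular genes was called, against 0.0152% of all genes tested, and the smallest adjusted p among them was 0.66 by the quasi-likelihood test of edgeR. At an unadjusted p under 0.05 there were 10 vascular genes. Of these, 6 were higher in ELS mice (12% of the 50, against 1.89% of all genes tested) and 4 were lower (8%, against 2.34%). The higher ones were Cldn5, Slc40a1, Clec14a, Pdgfrb, Kcnj8 and Dcn, and the lower ones Slc2a1, Mfsd2a, Cyr61 and Klf4. The groups did not overlap in 8 genes. In 5 of them (Slc40a1, Clec14a, Kcnj8, Vtn and Dcn) every ELS mouse was above every Control mouse, against 3.81% of all genes, and in 3 (Slc2a1, Mfsd2a and Cyr61) every ELS mouse was below, against 4.47%. Because the list was drawn up with results of these mice known, these shares are descriptions. The directions were mixed, with 31 fold changes above 0 (62%, against 47.5% of all genes tested) and 19 below, and the median log2 fold change was 0.046, against -0.005 over all genes tested. For 40 of the 50 genes the absolute log2 fold change was under 0.3, as it was for 12573 of the 13185 genes tested.

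**Figure D1:**
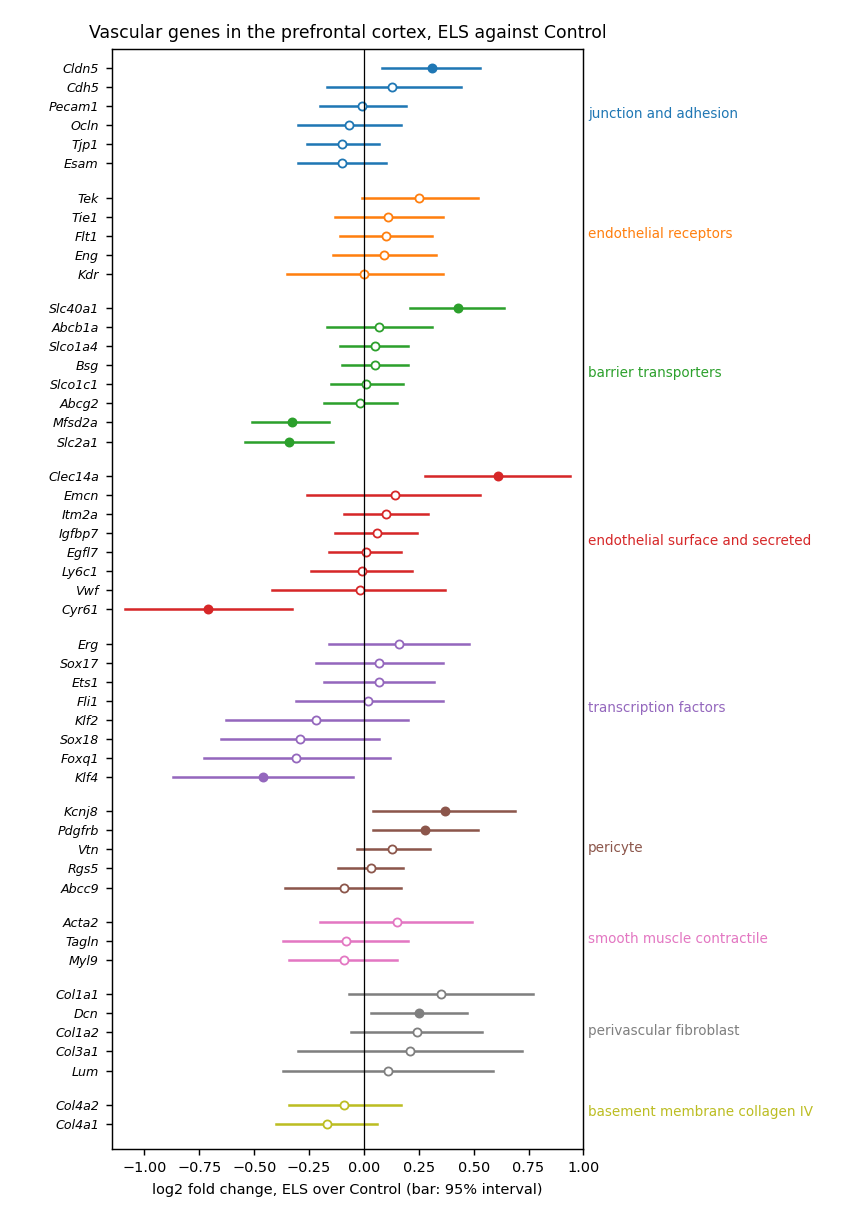
Log2 fold change of each of the 50 vascular genes, ELS over Control, grouped by role, with bars for the 95% interval from edgeR's quasi-likelihood fit; filled points had an unadjusted p under 0.05. The 10 filled points lie on both sides of 0, from -0.71 for Cyr61 to 0.61 for Clec14a, and the other 40 intervals include 0.

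The split between higher and lower genes depended on single mice. Without Control mouse 1, 11 genes were higher and 3 lower at an unadjusted p under 0.05, where 4.16% of all genes passed in either direction. Without Control mouse 2 the counts were 3 and 5 (3.11% of all genes), and without Control mouse 3 they were 5 and 8 (11.7%). Without ELS mouse 1 they were 4 and 4 (3.53%), without ELS mouse 2 they were 8 and 3 (3.88%), and without ELS mouse 3 they were 5 and 3 (2.77%). Without both mice of high striatal markers, a choice made after seeing the data, 5 were higher and 7 lower, against 8.74% of all genes in either direction. The edgeR likelihood ratio test, which leaves out the uncertainty of the dispersion, called 3 vascular genes (Clec14a, Cyr61 and Slc40a1, each at an adjusted p of 0.0468), against 0.212% of all genes tested.

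The sequences before the start sites are shown for the genes whose groups did not overlap and whose unadjusted p was under 0.05, as far as the RefSeq promoter table (build GRCm38.p6) held them; it held 34 of the 50 genes, and of this set it lacked Slc40a1 and Dcn. Each run reads 5' to 3' on the strand of the gene and covers up to 250 bases before the RefSeq start, less any base that GENCODE places inside the gene. They lie at chr4:119108495-119108710 for Slc2a1 (plus strand), chr4:122961189-122961438 for Mfsd2a, chr12:58269291-58269508 for Clec14a, chr3:145649986-145650235 for Cyr61 and chr6:142571615-142571864 for Kcnj8 (all minus strand). Capitals mark the letters GGGCGG of a GC box, the letters TATAAA that name the TATA box, and ACGTG, a form of the core of hypoxia-response elements. Each was searched on both strands, and other forms of that core were neither searched nor marked.

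Slc2a1: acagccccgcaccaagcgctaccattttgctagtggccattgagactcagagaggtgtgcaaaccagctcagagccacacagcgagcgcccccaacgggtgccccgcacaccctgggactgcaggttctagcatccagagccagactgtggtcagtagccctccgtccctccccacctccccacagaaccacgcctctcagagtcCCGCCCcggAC
Mfsd2a: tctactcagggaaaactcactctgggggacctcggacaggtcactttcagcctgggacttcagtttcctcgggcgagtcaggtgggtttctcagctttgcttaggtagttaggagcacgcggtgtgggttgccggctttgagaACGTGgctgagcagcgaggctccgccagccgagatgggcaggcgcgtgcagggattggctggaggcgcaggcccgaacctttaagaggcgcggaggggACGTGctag
Clec14a: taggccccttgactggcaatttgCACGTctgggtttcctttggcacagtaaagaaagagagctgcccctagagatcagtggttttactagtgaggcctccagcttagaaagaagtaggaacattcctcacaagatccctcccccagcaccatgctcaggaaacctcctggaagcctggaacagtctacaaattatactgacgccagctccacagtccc
Cyr61: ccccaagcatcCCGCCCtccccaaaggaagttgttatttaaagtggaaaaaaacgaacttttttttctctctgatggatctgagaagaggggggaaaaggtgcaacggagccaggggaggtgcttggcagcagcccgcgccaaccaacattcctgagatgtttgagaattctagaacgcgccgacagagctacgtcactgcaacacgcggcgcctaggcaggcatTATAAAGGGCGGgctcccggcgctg
Kcnj8: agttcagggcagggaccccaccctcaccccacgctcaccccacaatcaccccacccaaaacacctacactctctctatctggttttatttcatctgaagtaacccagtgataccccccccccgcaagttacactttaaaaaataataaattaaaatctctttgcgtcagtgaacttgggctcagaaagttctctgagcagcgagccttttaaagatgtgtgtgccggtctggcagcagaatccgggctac

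Slc2a1 had GC boxes beginning 45 and 20 bases before its RefSeq start and an ACGTG core at 36 bases, of which the second box and the end of the core fall in the 34 bases not printed. Mfsd2a had ACGTG cores at 107 and 9 bases before the start, and Clec14a had 1 at 227 bases, as CACGT on the printed strand. Cyr61 had a TATA box at 25 bases, next to a GC box at 19 bases, and a further GC box at 239 bases. No GC box, TATA box or ACGTG core lay in the Kcnj8 stretch. Of the 32851 promoter stretches of 250 bases in the table, 16.6% held an ACGTG core, 32.7% a GC box and 12.4% a TATA box. Among the 34 vascular genes, these motifs were found in 6, 16 and 6. The ETS core CCGGAA, a site type of endothelial factors, was found in 2 of the 34 (12% of all stretches), the E-box CACGTG, which contains the ACGTG core, in 1 (6.02%), and the cyclic AMP response element TGACGTCA in 1, Flt1 (1.55%). The CArG box bound by SRF was found in 1, the smooth muscle gene Myl9 (1.47%). The ACGTG core was added to the search after the sequences were seen, and a match describes the letters only.

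Levels per length gave the order of the vascular genes within the PFC (the plot of CPM per kb). Bsg, which encodes the transporter chaperone basigin and is made by many brain cells, stood first with 246 CPM per kb of exons on average over the 6 mice. It was followed by Itm2a with 49.8, the pericyte gene Rgs5 with 42.9, Vtn with 28.8, Slc2a1 with 26.8 and Cldn5 with 25.6 CPM per kb. The genes of perivascular fibroblasts had 2.04 CPM per kb for Dcn, 1.71 for Col1a2, 1.26 for Col1a1, 1.03 for Lum and 0.546 for Col3a1. Low levels were also found in other roles, with 0.62 for Vwf, 0.716 for Foxq1, 0.901 for Clec14a and 1.1 for Abcc9. The lowest count of any vascular gene in any mouse was 68 reads, for Lum, whose 2.15 CPM in ELS mouse 2 was the value nearest to the limit of 1 CPM. None of the 50 fell below that limit.

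**Figure D2:**
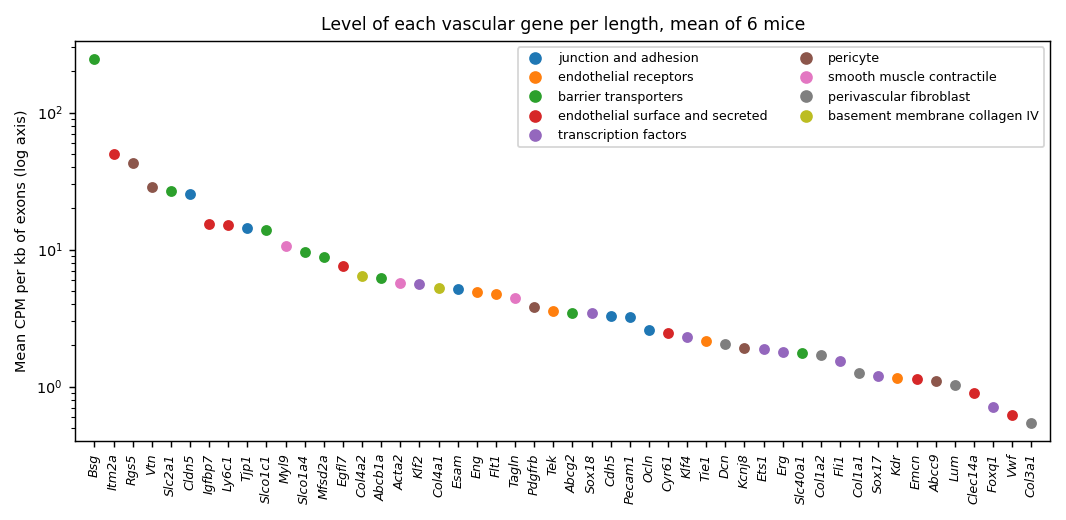
Mean level of each vascular gene over the 6 mice in CPM per kb of exons, on a log axis, coloured by role. Bsg leads with 246 CPM per kb, and Col3a1 is lowest with 0.546.

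Among the junction genes, the mean level of Cldn5 was higher in ELS mice. Cldn5 (chromosome 16, 18776847 to 18778262, plus strand of GRCm38) encodes claudin-5, the main tight junction protein of brain endothelium. Its level was 32.9, 36.5 and 27.9 CPM in Control mice 1 to 3, against 42.8, 35.6 and 42.1 CPM in ELS mice 1 to 3. ELS mouse 2 lay below Control mouse 2, so the groups overlapped. The log2 fold change was 0.31 with a standard error of 0.103 (unadjusted p = 0.0109 and 0.97 after adjustment by the quasi-likelihood test of edgeR), a 1.24-fold level, and without both mice of high striatal markers it was 0.166. The other 5 had intervals that included 0. Occludin (Ocln) and ZO-1 (Tjp1), the partners of claudin-5 in the tight junction, had log2 fold changes of -0.07 and -0.10, VE-cadherin (Cdh5) of the adherens junction 0.13, and the adhesion molecules Pecam1 and Esam -0.01 and -0.10. For Pecam1, often used to stain brain vessels, the 95% interval ran from -0.20 to 0.19.

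The 5 endothelial receptors gave no call, and none had an unadjusted p under 0.05. Flt1, the VEGF receptor that binds its ligand tightly and signals weakly, was measured at 70.3, 58.2 and 56.9 CPM in the Control group against 66.0, 59.0 and 73.8 CPM in ELS mice, with a log2 fold change of 0.10 (95% interval -0.11 to 0.31). Kdr, the main signalling VEGF receptor, had 10.5 ± 2.28 CPM in the Control group against 10.5 ± 1.67 CPM in ELS mice (n = 3 each, ± SD). Tek, the receptor of the angiopoietins, had 15.2 ± 1.10 CPM in the Control group against 18.1 ± 3.11 CPM in ELS mice, with an interval of the log2 fold change from -0.01 to 0.52. Its partner Tie1 and endoglin (Eng), a TGF-beta co-receptor, had log2 fold changes of 0.11 and 0.09.

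None of the 8 barrier transporters was called, and 3 had an unadjusted p under 0.05, with Slc40a1 higher and Slc2a1 and Mfsd2a lower in ELS mice. Over all genes tested, 1.89% were higher and 2.34% lower at that level. Slc2a1 (chromosome 4, 119108711 to 119137983, plus strand) encodes GLUT1, which carries glucose into the brain and is also made by astrocytes. Its level was 106, 92.0 and 117 CPM in Control mice 1 to 3, against 91.1, 77.2 and 79.9 CPM in ELS mice 1 to 3. ELS mouse 1 lay just under Control mouse 2, and with upper-quartile factors or library size alone as the scaling the groups overlapped. The log2 fold change was -0.34 with a standard error of 0.0928 (adjusted p = 0.72 by the quasi-likelihood test). With the level of striatal markers as a covariate, a fit added after seeing the data, Slc2a1 was the 1 vascular gene called, at an adjusted p of 0.00197, against 0.235% of all genes tested. Without both mice of high striatal markers it was not called, with a log2 fold change of -0.33 (adjusted p = 0.0843 by the quasi-likelihood test).

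Mfsd2a (chromosome 4, 122946850 to 122961188, minus strand) encodes the endothelial carrier of lysophosphatidylcholine with omega-3 fatty acids, which also keeps vesicle transport across the barrier low. It stood at 21.3, 22.4 and 22.8 CPM in the Control group against 18.3, 17.1 and 17.3 CPM in ELS mice. All ELS mice lay below the lowest Control mouse. The log2 fold change was -0.33 with a standard error of 0.081 (adjusted p = 0.66). Mfsd2a and Slc2a1 lie on the same chromosome, 3.81 Mb apart. Tie1, with a log2 fold change of 0.11, lies nearer to Slc2a1, at 0.619 Mb. Slc40a1 (chromosome 1, 45908068 to 45926523, minus strand) encodes ferroportin, the iron exporter, which is made by endothelium and also by glia. Its level was 12.6, 14.4 and 13.5 CPM in the Control group against 17.0, 17.2 and 20.2 CPM in ELS mice, a log2 fold change of 0.43 with a standard error of 0.1 (adjusted p = 0.66). The groups did not overlap, and ELS mouse 3 was highest.

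The other 5 genes of this group stayed within 0.07 of 0 on the log2 scale. The organic anion carrier Slco1a4 had 63.8, 59.8 and 58.8 CPM in the Control group against 63.4, 58.9 and 66.0 CPM in ELS mice (log2 fold change 0.05, 95% interval -0.11 to 0.20). The thyroid hormone carrier Slco1c1 and the drug efflux pumps Abcb1a (P-glycoprotein) and Abcg2 had log2 fold changes of 0.01, 0.07 and -0.02, and Bsg had 0.05. Reads of Slco1a4 and Abcb1a can also match close relatives (other Slco1a genes and Abcb1b) and were kept only where they mapped uniquely, so the counts of both genes are uncertain. Gm42686 on the opposite strand covers 10.1% of the Abcb1a exons.

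Among the surface and secreted proteins, Clec14a had the largest positive fold change of the 50 genes and Cyr61 the largest negative one. Clec14a (chromosome 12, 58264720 to 58269290, minus strand) encodes a C-type lectin of endothelial cells with a role in vessel sprouting. It was measured at 3.28, 3.12 and 3.39 CPM in the Control group against 4.74, 5.12 and 5.09 CPM in ELS mice, from counts between 88 and 179 reads. The mice of each group lay close together and the gap between the groups was wider than either spread. The log2 fold change was 0.61 with a standard error of 0.150 (adjusted p = 0.66), a 1.53-fold level. Cyr61, also named Ccn1 (chromosome 3, 145646976 to 145649981, minus strand), encodes a matricellular protein that is induced quickly by growth factors and mechanical stretch. It had 6.63, 4.71 and 7.13 CPM in the Control group against 3.42, 3.89 and 4 CPM in ELS mice, a log2 fold change of -0.71 with a standard error of 0.176 (adjusted p = 0.66 by the quasi-likelihood test of edgeR). Control mouse 2, the lowest of its group, was still above the highest ELS mouse.

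The 6 remaining genes of this role had intervals that included 0. Ly6c1, a surface protein of brain endothelium, had 27.4, 21.7 and 27.5 CPM in the Control group against 27.1, 22.5 and 26.4 CPM in ELS mice. Its log2 fold change was -0.01 (95% interval -0.24 to 0.22), and reads that match the near-identical Ly6c2 as well make its count uncertain. The levels of Itm2a, Emcn, Egfl7, Vwf and Igfbp7 differed by -0.02 to 0.14 on the log2 scale. Vwf, the clotting factor carrier that is richest in larger vessels, had 13.9 CPM in Control mouse 1 and between 8.07 and 10.7 CPM in the other 5 mice. Other genes overlap part of the Egfl7 exons, 9.41% on the same strand, among them the endothelial microRNA gene Mir126a.

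**Figure D3:**
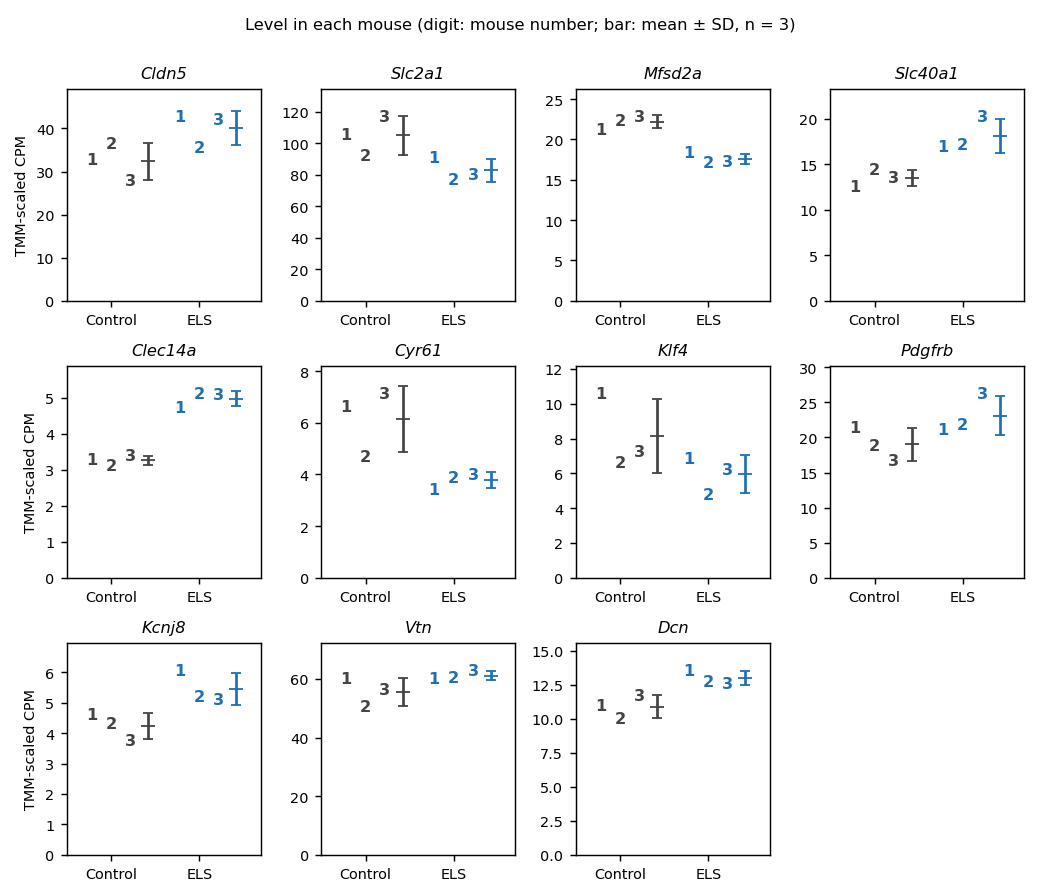
TMM-scaled CPM in each mouse for the 11 vascular genes with an unadjusted p under 0.05 or with groups that did not overlap; digits are mouse numbers and bars the mean ± SD of 3 mice, on axes that start at 0. Clec14a, Slc40a1, Kcnj8, Vtn and Dcn have every ELS mouse above every Control mouse, and Slc2a1, Mfsd2a and Cyr61 every ELS mouse below.

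Of the 8 transcription factors, Klf4 was the 1 with an unadjusted p under 0.05. It was lower in ELS mice, as were 2.34% of all genes tested at that level. Klf4 (chromosome 4, 55527143 to 55532466, minus strand) and Klf2 are induced by laminar flow and keep endothelium quiescent. Klf4 had 10.6, 6.62 and 7.23 CPM in the Control group against 6.87, 4.78 and 6.23 CPM in ELS mice. ELS mouse 1 lay above Control mouse 2, and Control mouse 1 was far above the rest. The log2 fold change of Klf4 was -0.46 with a standard error of 0.189 (unadjusted p = 0.032 and 1 after adjustment), and without Control mouse 1 it was -0.22. Klf2 had 11.2 ± 3.21 CPM in the Control group against 9.66 ± 1.7 CPM in ELS mice (n = 3 each, ± SD).

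Sox17, a driver of arterial identity, was measured at 5.04, 5.74 and 5.90 CPM in the Control group against 5.70, 5.69 and 6.14 CPM in ELS mice, with a log2 fold change of 0.07 (95% interval -0.22 to 0.36). Gm37587 on the opposite strand covers 16.8% of the Sox17 exons. The ETS factors Erg, Ets1 and Fli1, which hold endothelial identity, had log2 fold changes of 0.16, 0.07 and 0.02. Sox18 and the barrier factor Foxq1 had -0.29 and -0.31, with intervals from -0.65 to 0.07 and from -0.73 to 0.12, and 66.1% of the Foxq1 exons lie opposite A530084C06Rik. Klf4 and Cyr61 belong to the genes that respond fast to stimuli, and a list of immediate early genes was read beside them. In bulk tissue the cells that made these transcripts cannot be told apart. The call of the immediate early genes depended on the test and its settings. Of the 12 listed, edgeR's quasi-likelihood test called 0, with a smallest adjusted p of 0.111 for Npas4. DESeq2 called 5 (Arc, Fos, Npas4, Nr4a1 and Zfp36), against 0.137% of all genes tested, and the likelihood ratio test called these 5 and Egr1. Other quasi-likelihood fits gave 4 calls with Control mouse 3 left out, of 29 genes called among 13212. There were 4 without both mice of high striatal markers (of 27) and 5 with the striatal covariate (of 31). There were 3 with mouse number as a block (of 7) and 1 with all genes that had a read (of 4). The fits without any other single mouse, with other scalings or with the other gene filter called 0, as did limma-voom. All 12 had log2 fold changes below 0, 11 of them with an unadjusted p under 0.05, against 2.34% of all genes tested, and their summed level was 688 to 896 CPM in the Control group against 519 to 545 CPM in ELS mice. The part of that difference in the levels of Klf4 and Cyr61 was not tested.

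None of the 5 pericyte genes was called. In ELS mice 2 of them, Pdgfrb and Kcnj8, were higher at an unadjusted p under 0.05, against 1.89% of all genes tested. Of the 5 fold changes 4 were above 0, against 47.5% of all genes tested, and the median log2 fold change was 0.135. Pdgfrb (chromosome 18, 61045150 to 61085061, plus strand), the receptor through which endothelial PDGF-B recruits pericytes, had 21.4, 18.8 and 16.7 CPM in the Control group against 21.2, 21.9 and 26.3 CPM in ELS mice. Control mouse 1 lay above ELS mouse 1. Its log2 fold change was 0.28 with a standard error of 0.111 (unadjusted p = 0.0251 and 1 after adjustment by the quasi-likelihood test), and without ELS mouse 3 it was 0.181. Vtn, the matrix protein vitronectin made by pericytes in the brain, had 60.07, 50.43 and 56.44 CPM in the Control group against 60.1, 60.35 and 62.89 CPM in ELS mice. ELS mouse 1 lay just above Control mouse 1, so the groups did not overlap, but the log2 fold change of 0.13 had an unadjusted p of 0.0993. Without Control mouse 2 it was 0.069. Rgs5, a regulator of G-protein signalling that is abundant in pericytes, had 191, 195 and 192 CPM in the Control group against 196, 183 and 211 CPM in ELS mice (log2 fold change 0.03, 95% interval -0.12 to 0.18).

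Kcnj8 and Abcc9 encode the channel pore Kir6.1 and the regulatory subunit SUR2 of the ATP-sensitive potassium channel of mural cells, and lie side by side on chromosome 6 with 16.2 kb between them. Kcnj8 (142564837 to 142571614, minus strand) had 4.61, 4.32 and 3.77 CPM in the Control group against 6.06, 5.21 and 5.12 CPM in ELS mice, a log2 fold change of 0.37 with a standard error of 0.152 (unadjusted p = 0.0324 and 1 after adjustment). ELS mouse 1 was highest, and the groups did not overlap. Without both mice of high striatal markers the log2 fold change of Kcnj8 was 0.21. Abcc9 had 9.46 ± 0.699 CPM in the Control group against 8.89 ± 1.09 CPM in ELS mice (n = 3 each, ± SD), a log2 fold change of -0.09 (95% interval -0.36 to 0.17). The ratio of Kcnj8 to Abcc9 within a mouse, which does not depend on scaling, was 0.488, 0.425 and 0.430 in Control mice and 0.701, 0.655 and 0.508 in ELS mice. This ratio was looked at after the values were seen and was not tested.

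The contractile genes of smooth muscle gave no difference beyond the spread between mice. Acta2, smooth muscle actin, had 14.8, 9.42 and 11.5 CPM in the Control group against 15.8, 11.8 and 12.1 CPM in ELS mice, with a log2 fold change of 0.15 (95% interval -0.20 to 0.49). Its coding sequence resembles that of other actin genes, which can split or remove reads. Tagln (transgelin) and Myl9, a myosin light chain, had log2 fold changes of -0.08 and -0.09. Genes on the opposite strand, among them Pcsk7, cover 67.9% of the Tagln exons, and the strand setting of the counting is not given in the sources used here.

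All 5 genes of perivascular fibroblasts had fold changes above 0, from 0.11 for Lum to 0.35 for Col1a1, with a median of 0.238, where 47.5% of all genes tested were above 0. None was called, and 1 of the 5 was higher at an unadjusted p under 0.05, against 1.89% of all genes tested. Dcn (chromosome 10, 97479609 to 97518143, plus strand), which encodes the small matrix proteoglycan decorin, had 10.95, 10.1 and 11.7 CPM in the Control group against 13.6, 12.7 and 12.6 CPM in ELS mice. Its log2 fold change was 0.25 with a standard error of 0.1 (unadjusted p = 0.0279 and 1 after adjustment). Col1a2, a chain of fibrillar collagen I, had 23.3, 17.0 and 18.1 CPM in the Control group against 25.8, 18.6 and 24.6 CPM in ELS mice, a log2 fold change of 0.24 (95% interval -0.06 to 0.54). It was 0.145 without ELS mouse 1, 0.151 without Control mouse 2, 0.39 without Control mouse 1, 0.367 without ELS mouse 2 and 0.098 without both mice of high striatal markers. Its partner Col1a1 had 7.22 ± 2.2 and 9.26 ± 1.49 CPM, and Col3a1 had 4.96 ± 1.84 and 5.76 ± 1.06 CPM (n = 3 each, ± SD). Mouse number 2 was lowest of its group in Col1a1, Col1a2 and Col3a1, in both groups. These genes are also made by fibroblasts of the meninges, and no marker used here separates both sources.

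Col4a1 and Col4a2, the collagen IV chains of the vascular basement membrane, are transcribed away from each other from starts 21 bases apart on chromosome 8, and followed each other across mice. Col4a1 had 46.2, 43.8 and 34.1 CPM in the Control group against 34.97, 35.35 and 40.1 CPM in ELS mice, a log2 fold change of -0.17 (95% interval -0.40 to 0.06). It was -0.082 without Control mouse 1 and -0.294 without Control mouse 3. Col4a2 had 50.2, 46.5 and 34.2 CPM in the Control group against 39.7, 39.7 and 43.9 CPM in ELS mice, a log2 fold change of -0.09. Control mice 1 and 2 were above all ELS mice and Control mouse 3 below them in both genes. The ratio of Col4a1 to Col4a2 within a mouse was 0.921, 0.942 and 0.996 in Control mice and 0.882, 0.890 and 0.912 in ELS mice. The groups did not overlap in this ratio, which was not tested. Nor did they overlap in the ratios of Slc2a1 and of Mfsd2a to Slc40a1. They did overlap in the ratio of Flt1 to Kdr (6, 4.92 and 7.27 in Control mice, 6.26, 6.71 and 6.09 in ELS mice). The same held for Col1a1 to Col1a2 (0.41, 0.304 and 0.385 in Control mice, 0.38, 0.407 and 0.424 in ELS mice). These ratios were not tested either.

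Summed over each role, the levels of the groups overlapped in 9 of 9 roles. Relative to the mean of the Control mice, perivascular fibroblast genes summed to 117.9%, 84.0% and 98.1% in Control mice 1 to 3, against 132.0%, 101.7% and 123.8% in ELS mice 1 to 3. Pericyte genes summed to 102.1%, 99.0% and 98.8% in Control mice and to 104.0%, 98.9% and 112.1% in ELS mice. Barrier transporters, dominated by Bsg, varied least and kept between 92.4% and 104.8% in the 6 mice. The median level of the 50 genes, each taken relative to its own mean over the 6 mice, was 106%, 91.5% and 96.4% in Control mice 1 to 3, against 103%, 92.7% and 106% in ELS mice 1 to 3. The roles did not all follow this order, with 111% for the collagen IV genes in Control mouse 2 and 103% for the pericyte genes in ELS mouse 2.

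**Figure D4:**
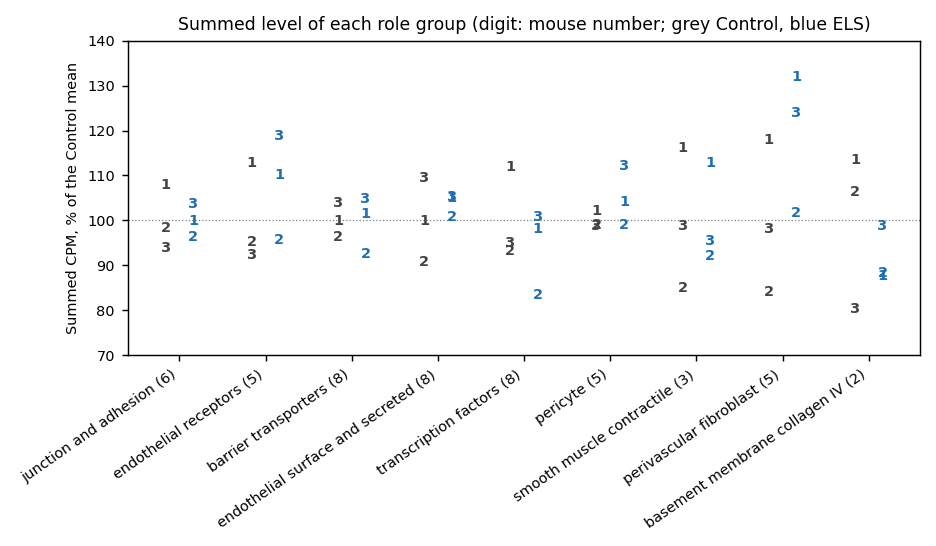
Summed CPM of each role group in each mouse as a percent of the Control mean, with digits for mouse numbers, grey for Control and blue for ELS; the number of genes stands in parentheses and the axis starts at 70%. The groups overlap in every role, and perivascular fibroblast genes span the widest range, from 84.0% to 132.0%.

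Other genes of vascular signalling were read from a list of 70 symbols, of which 67 were tested. None was called in the quasi-likelihood test, and the smallest adjusted p was 0.72. At an unadjusted p under 0.05 there were 10, of which 9 were higher in ELS mice (13.4% of the 67, against 1.89% of all genes tested) and 1 was lower (1.49%, against 2.34%), and the median log2 fold change of the 67 was 0.07. Of the 10 tested genes of VEGF, angiopoietin and PDGF signalling, 4 were among them. Nrp2, a co-receptor for VEGF-C and semaphorins that neurons also make, had 15.8 ± 1.47 CPM in the Control group against 20.1 ± 0.895 CPM in ELS mice (n = 3 each, ± SD), a log2 fold change of 0.34 with a standard error of 0.0926 (adjusted p = 0.72). The related Nrp1, co-receptor for VEGF-A, was lower, with 21.9 ± 2.24 CPM in the Control group against 18.3 ± 0.844 CPM in ELS mice (log2 fold change -0.26, adjusted p = 1).

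Angpt1, the ligand of Tek that stabilises vessels, had 8.48, 5.77 and 7.89 CPM in the Control group against 11.5, 9.61 and 10.1 CPM in ELS mice, a log2 fold change of 0.49 with a standard error of 0.146 (adjusted p = 0.865 by the quasi-likelihood test of edgeR). Gm17473 on the opposite strand covers 14.2% of the Angpt1 exons. Vegfc, a VEGF of the lymphatic type, had 2.95 ± 0.330 CPM in the Control group against 4.15 ± 0.869 CPM in ELS mice, with a log2 fold change of 0.49 that was 0.307 without ELS mouse 3. Vegfa, the main angiogenic ligand, and Pdgfb, the ligand of Pdgfrb, had log2 fold changes of 0.04 and -0.17, and neither had an unadjusted p under 0.05.

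In the Wnt pathway of the barrier, Wnt7a was the 1 of 12 genes with an unadjusted p under 0.05, with 10.1 ± 0.896 CPM in the Control group against 12 ± 0.476 CPM in ELS mice (n = 3 each, ± SD) and a log2 fold change of 0.24. Its receptor complex of Fzd4, Reck and Adgra2 had log2 fold changes of -0.06, 0.10 and 0.11, and the response gene Axin2 had -0.05. Of 11 Notch and ephrin genes, the Notch target Hes1 (13.6 ± 0.705 against 17.0 ± 2.18 CPM, log2 fold change 0.33) and the arterial ligand Dll4 (1.78 ± 0.281 against 2.56 ± 0.505 CPM, 0.52) were higher in ELS mice at that level. None of the 12 genes of TGF-beta, BMP and sphingosine phosphate signalling was. Of 22 further vascular markers, the 3 were the lactate carrier Slc16a1 (46.6 ± 2.46 against 55.2 ± 7.54 CPM), the amino acid carrier Slc38a5 (2.3 ± 0.483 against 3.27 ± 0.717 CPM) and the transcription factor Zic1 (14.0 ± 2.52 against 17.8 ± 2.63 CPM), in Control and ELS mice, and in each of these 3 the groups overlapped. Their log2 fold changes of 0.25, 0.50 and 0.34 were 0.138 for Slc16a1 without ELS mouse 1, 0.306 for Slc38a5 without ELS mouse 3 and 0.218 for Zic1 without ELS mouse 1.

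**Figure D5:**
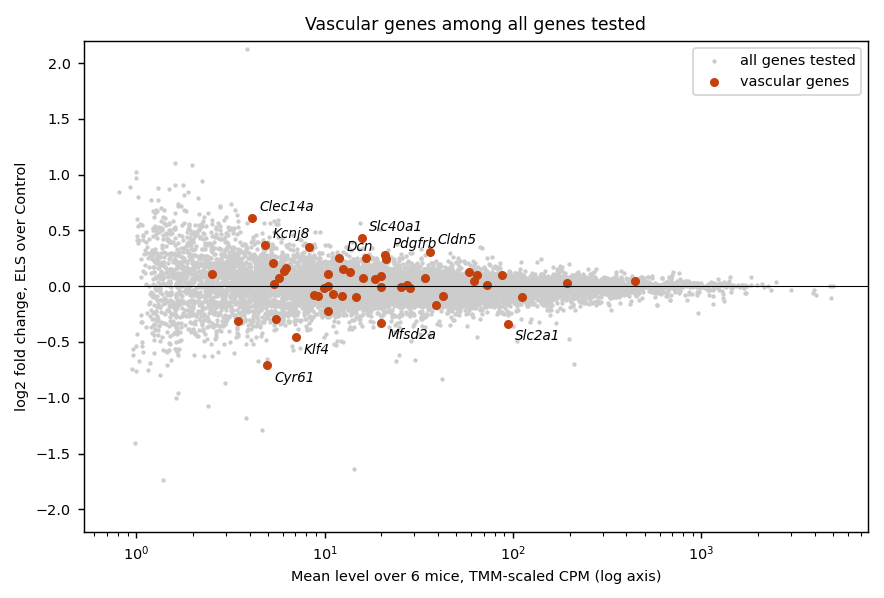
Log2 fold change, ELS over Control, against the mean level over 6 mice in TMM-scaled CPM on a log axis, for all 13185 genes tested (grey) and the 50 vascular genes (orange); vascular genes with an unadjusted p under 0.05 are named. The named genes reach from -0.71 for Cyr61 to 0.61 for Clec14a, and none of the 50 was called.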

How the data were processed

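Sequenced were PFC libraries of 3 mice per group, Control and ELS. The authors trimmed reads, aligned them to mm10 with STAR (2.7.1a in the submitters' processing notes; the paper's text names another version) and counted uniquely mapped reads with HTSeq 0.9.1. They deposited raw counts for 22000 gene symbols, neither normalized nor pooled. The paper and the labels name different stranded mRNA library kits, and the annotation release is not given in the sources used here. The ELS columns are headed with the abbreviation of social isolation and were matched by that term and number.

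The 13185 genes that reached 1 CPM throughout 1 or both groups were fitted with edgeR 4.0.16 in R 4.3.3 (TMM, quasi-likelihood F test, group as the only term, Benjamini-Hochberg). Standard errors and 95% intervals come from the F statistic. DESeq2 1.42.0, limma 3.58.1 and other settings were alternatives, and the fits were tested on simulated counts with known changes. Within each group, no library was a repeat of another (chi-square per gene of at least 6.25 between mice of a group). Total counts lay between 28405795 and 35241743 per mouse.

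The 50 vascular genes, the other gene lists and the motifs were chosen with earlier results of these data known. Named with full values are vascular genes with an unadjusted p under 0.05 or groups that do not overlap, 1 or more defining genes per role, and pathway genes with an unadjusted p under 0.05. Lists covered 9 vascular roles, 70 pathway symbols, and markers of neurons, astrocytes, oligodendrocytes, microglia, striatum, choroid plexus, red blood cells and immediate early genes. Positions, exon lengths and overlaps are from GENCODE M21 on GRCm38 (mm10), where all 50 matched, Cyr61 as Ccn1. No column was left unused. Whether the mice shared litters by number is not given in the sources used here.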

Additional observations from a re-analysis of the deposited data

How the results depend on the processing

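The number of vascular genes called was 0 in the quasi-likelihood fit, 3 by the likelihood ratio test of edgeR, 1 with the striatal marker covariate, and 0 in each other fit: DESeq2, limma-voom, 3 other scalings, 2 other gene filters, an adjusted p under 0.1, no fold change minimum, and with each mouse left out. The count at an unadjusted p under 0.05 was 10 and ran from 8 to 14 with a mouse left out; DESeq2 gave 10. The 8 genes with groups that did not overlap stayed at 8 in number with other scalings, but with upper-quartile factors or library size alone Pdgfrb took the place of Slc2a1. The median log2 fold change of the 50 genes ran from 0.004 to 0.088 with a mouse left out. No pathway gene was called in any fit. Directions of small effects were unsettled with a mouse left out: Ly6c1 ran from -0.115 to 0.065, Rgs5 from -0.025 to 0.075 and Acta2 from -0.001 to 0.334, and Acta2 was -0.022 without both mice of high striatal markers; fewer samples entered these fits. The other 26 named genes kept their direction in all 17 alternatives. With replicate number as a replicate block, 13 vascular genes had an unadjusted p under 0.05 (9 higher, 4 lower), against 4.35% of all genes in that fit, and 0 were called. Mice sharing a number deviated from their group means with correlations of -0.164, 0.258 and -0.0355, and 2 of 6 mice correlated best with their own number, so the numbers were not taken as pairs.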
